A study of Danio rerio with 2 samples.

Results

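The genes described here are 8 transcription factors of the secretory lineage: ascl1a, atoh1b, sox4a, her15.1, neurod1, insm1a, insm1b and pax6b. They were chosen by gene symbol alone, out of 27056 distinct symbols in the deposited count tables, and their UMIs (unique molecular identifiers, each standing for 1 captured RNA molecule) were read in every cell. The samples were 2 droplet single-cell RNA libraries of whole guts dissected from zebrafish larvae at 5 days post-fertilization (dpf), 1 from il26KO larvae and 1 from WT larvae. The il26KO larvae carry a CRISPR/Cas9 deletion in il26, the gene for the cytokine IL-26, in all cells, and per the study's description the larvae of both genotypes came from clutchmate adults that were kept in tanks apart. Each library pooled 50 guts from 5 tubes of 10, so a library is an average over larvae and there is 1 library per group. No difference between the genotypes has a replicate check, and no test between them was made.

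In the vertebrate gut, absorptive and secretory cells arise from shared epithelial progenitors, and Notch signalling between neighbouring cells separates these fates. A cell in which Notch is active makes Hes/Her repressors, which keep proneural factors of the Ascl and Atoh families off, while a cell that escapes Notch keeps such a factor, presents Delta ligands and takes a secretory fate. Enteroendocrine cells, the hormone-producing secretory cells, then pass through a cascade in which Insm1, NeuroD1 and Pax6 are well known in mice and zebrafish, and several of the same genes also act in enteric neurons and in the pancreatic islet.

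The libraries held 122200924 UMIs for il26KO and 125236138 for WT, and 3841 il26KO and 5122 WT cells were kept, with a median of 14257 and 10214.5 UMIs per cell. The targeted gene il26 had 0 UMIs in kept il26KO cells and 1 in kept WT cells, which is too few to check the labels. The cells fell into 33 clusters. Of these, 29 were named in 14 classes from marker lists, and 4 were left unnamed and are called by their leading gene, which gives 18 populations in all. A level is given in CPM, counts per 1000000, the UMIs of a gene per 1000000 UMIs of all genes in the same cells. Brackets hold 95% intervals, which cover counting error only. Empty droplets, barcodes with 1 to 100 UMIs, show what free RNA alone gives. The 2 libraries had 10 kept cell barcodes in common.

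The epithelial progenitor-like class was 1 cluster, with 210 il26KO cells (5.47%) and 175 WT cells (3.42%). Of its 6 progenitor markers, 4 were raised in it, and neurl1aa, tnfrsf11a and her15.1 were among its leading genes. Its cells were shallow, with a median of 2878 UMIs in il26KO and 4920 in WT. An unnamed cluster led by hmgn2, stmn1a and mki67, genes of dividing cells, also raised 4 of the 6 progenitor markers and had 43 il26KO and 29 WT cells. The enteroendocrine-like class joined 3 clusters with 181 il26KO cells (4.71%) and 174 WT cells (3.40%). It was not purely intestinal: 6 of its il26KO cells and 9 of its WT cells gave 1% or more of their UMIs to ins, the insulin gene of pancreatic beta cells. No cluster met the rule for goblet-like cells, and the agr2-led cluster, with 86 il26KO and 195 WT cells, stayed unnamed.

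Of the 8 factors, 7 were measured. The other, atoh1b, a zebrafish homologue of the proneural factor Atoh1, had 0 UMIs in both libraries, and this 0 carries no information about its expression. Its entry is at position 27547 of the feature list, among 352 features listed after the last mitochondrial gene, mt-cyb, and none of these 352 features had a single UMI in either library. No level, upper limit or ratio is therefore given for atoh1b.

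The 7 measured factors fell into 3 patterns. The factors neurod1 and pax6b were enteroendocrine, insm1a and insm1b were shared by enteroendocrine-like cells with progenitor-like or neuron-like cells, and ascl1a and her15.1 were highest outside the enteroendocrine-like class. The remaining one, sox4a, was broad. The plot of levels by population shows this for every population and both libraries.

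**Figure D1:**
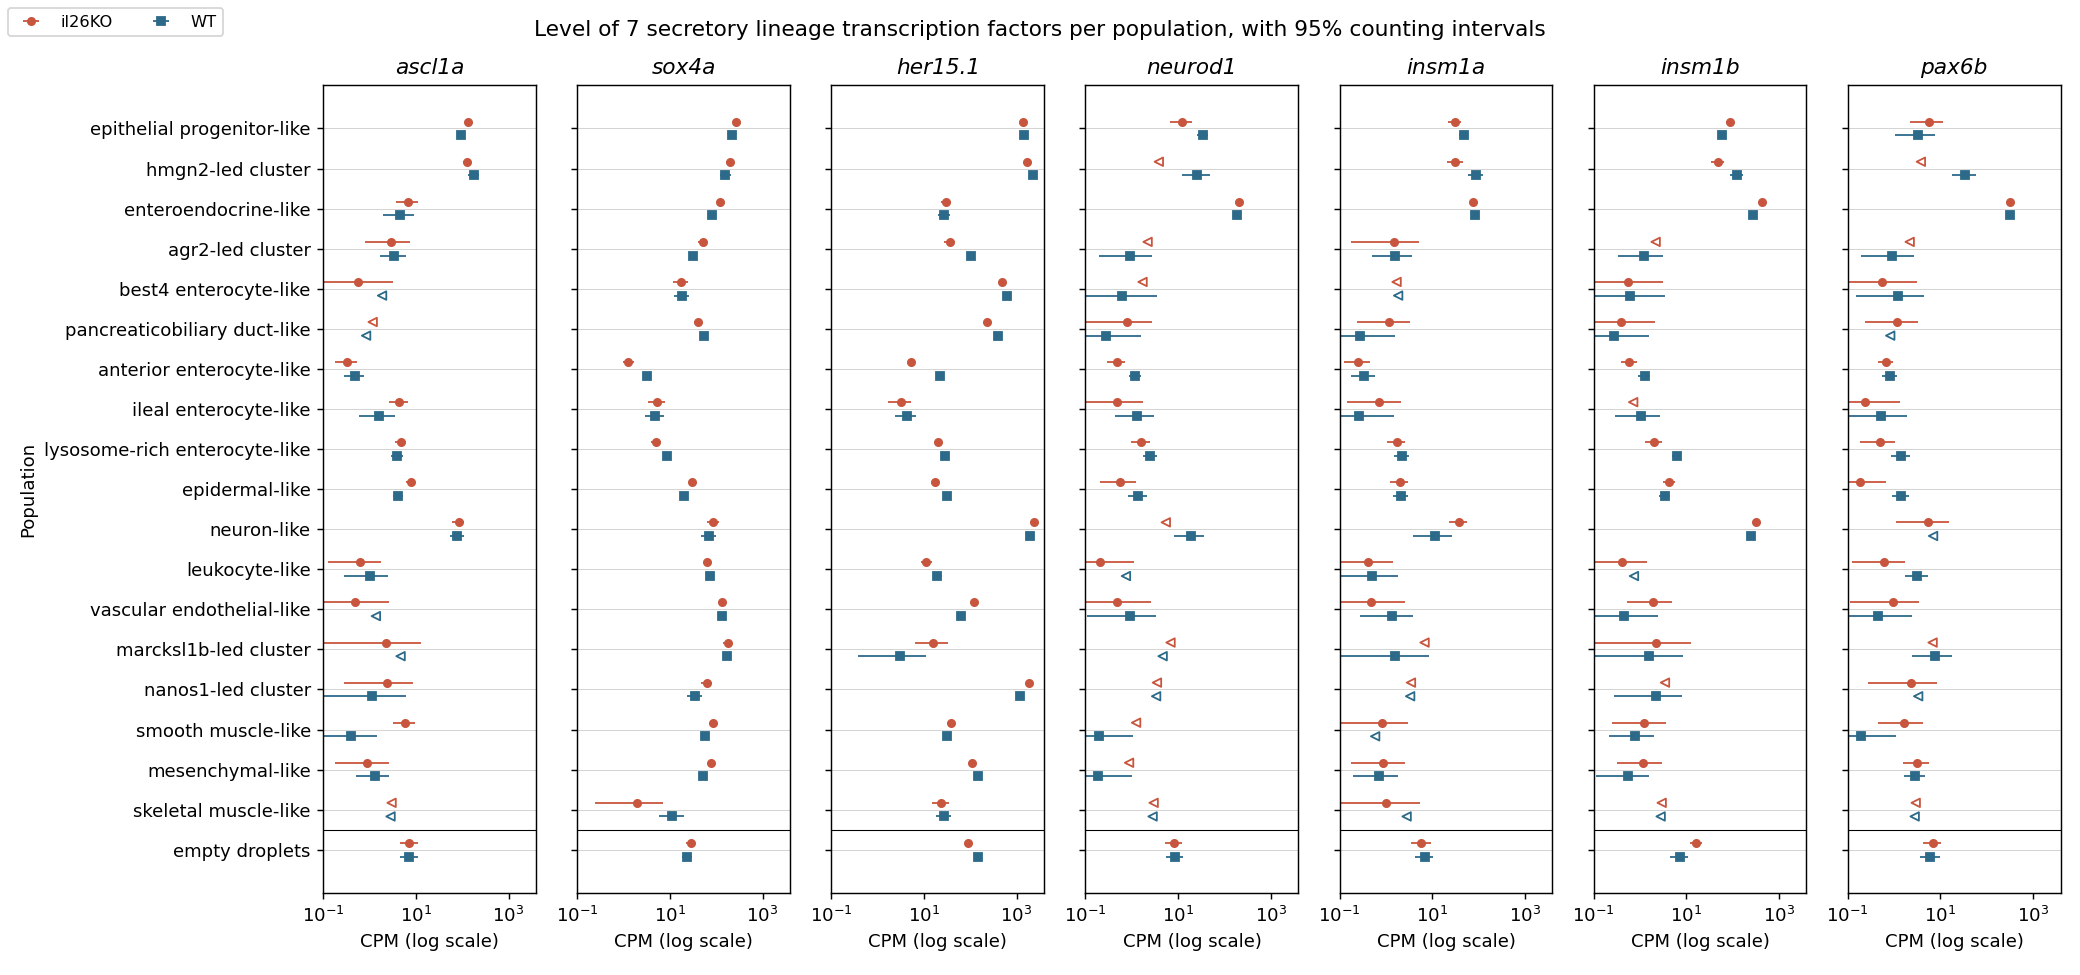
Level of each measured factor in CPM (horizontal log axis) in the 18 populations and in empty droplets (rows), for il26KO (red circles, upper of each pair) and WT (blue squares, lower). Lines are 95% counting intervals, cut at the left edge of the axis, and open triangles mark populations with 0 UMIs, drawn at the level that 3 UMIs would give. The points for neurod1 and pax6b stand far to the right in enteroendocrine-like cells alone, at 203 and 330 CPM in il26KO and 192 and 325 CPM in WT, whereas those of sox4a are spread over many rows.

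her15.1 encodes a Hes5-like repressor that is switched on by Notch. In epithelial progenitor-like cells it stood at 1368 CPM (1304 to 1435) in il26KO and 1449 CPM (1389 to 1511) in WT. It was above the empty droplets in both libraries in 6 of 18 populations. The neuron-like class had 2367 CPM in il26KO and 2002 CPM in WT, the hmgn2-led cluster 1683 and 2309 CPM and the nanos1-led cluster 1827 and 1177 CPM. The order of these 3 differed between the libraries, so no rank among them can be read. Without its top cell, 497 of the 796 WT UMIs of the hmgn2-led cluster remained. The neuron-like class and the hmgn2-led cluster stood above the progenitor-like class in both libraries, and the nanos1-led cluster did so in il26KO only. Below them came best4 enterocyte-like cells, a class of ion-transporting enterocytes, with 481 CPM in il26KO and 615 CPM in WT, then pancreaticobiliary duct-like cells with 231 and 388 CPM, and in each library the intervals of these neighbours did not overlap. In enteroendocrine-like cells her15.1 was at 30.5 CPM in il26KO and 27.6 CPM in WT, below the empty droplets of the same library, which held 89.7 and 146 CPM. Such a level is no sign of expression there. A UMI of her15.1 was found in 46.7% of il26KO and 58.9% of WT progenitor-like cells. After every cell was thinned to 1000 UMIs these shares were 35.9% and 48.8%, against 1.90% and 0.735% in ileal enterocyte-like cells.

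ascl1a encodes a proneural bHLH factor and is used in the zebrafish gut early in the secretory path. In epithelial progenitor-like cells it stood at 133 CPM (113 to 155) in il26KO and 93.5 CPM (78.6 to 110) in WT. The hmgn2-led cluster had 129 CPM (105 to 157) in il26KO and 177 CPM (135 to 227) in WT, and the neuron-like class had 83.4 and 77.6 CPM. These were the only 3 of 18 populations that in both libraries were above the empty droplets, which held 7.20 CPM in il26KO and 7.23 CPM in WT. In enteroendocrine-like cells ascl1a was at 6.73 CPM in il26KO and 4.60 CPM in WT, on a level with the empty droplets. Within that class the adcyap1a- and penka-led cluster stood apart in il26KO, with 27.6 CPM (13.2 to 50.8), and had 13.3 CPM (5.35 to 27.4) in WT, where the interval overlapped that of the empty droplets (4.48 to 11.1). Cells with a UMI made up 19.0% of il26KO and 20.6% of WT progenitor-like cells, or 6.77% and 7.32% after thinning. Leukocyte-like cells, which should lack the gene, had a UMI in 1.46% and 1.76% of cells at median depths of 22880 and 17179 UMIs.

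sox4a encodes an HMG-box factor that in mice takes part in secretory differentiation. It stood at 268 CPM (240 to 298) in il26KO and 224 CPM (200 to 249) in WT epithelial progenitor-like cells, and above the empty droplets of both libraries in 9 of 18 populations. The hmgn2-led cluster held 196 CPM (166 to 229) in il26KO and 157 CPM (118 to 204) in WT, so that the WT interval, but not the il26KO one, overlapped that of the progenitor-like class. Vascular endothelial-like cells held 132 CPM in each library, enteroendocrine-like cells 122 CPM in il26KO and 81.6 CPM in WT, and leukocyte-like cells 63.1 and 72.8 CPM. It was low in enterocytes, with 1.25 CPM in il26KO and 3.16 CPM in WT in anterior enterocyte-like cells, where the empty droplets held 27.8 and 23.8 CPM. The progenitor-like class held 12.5% of all sox4a UMIs of kept il26KO cells and 12.2% of those of WT cells, so its level over all cells says little about the secretory lineage.

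insm1a and insm1b encode paralogous zinc-finger factors of endocrine and neuronal differentiation. In enteroendocrine-like cells insm1a stood at 77.6 CPM (66.4 to 90) in il26KO and 82.7 CPM (69.8 to 97.4) in WT, and insm1b at 430 CPM (404 to 459) and 286 CPM (262 to 312). Both were also above the empty droplets in the progenitor-like class and in the hmgn2-led cluster. In progenitor-like cells insm1a had 30.6 CPM in il26KO and 48.7 CPM in WT, and insm1b had 87.0 and 60.1 CPM. The paralogs parted in neuron-like cells, where insm1b was at 330 CPM (284 to 381) in il26KO and 256 CPM (210 to 309) in WT, and insm1a at 38.1 CPM (23.6 to 58.2) and 11.8 CPM (3.82 to 27.4). The WT interval of insm1a in that class overlapped that of the WT empty droplets, at 6.89 CPM (4.21 to 10.6). The other populations had either paralog at 6.27 CPM or less.

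neurod1 and pax6b, a bHLH and a paired-box factor of endocrine cells, were the most restricted factors. Each was above the empty droplets in both libraries in 1 of 18 populations, the enteroendocrine-like class. neurod1 stood there at 203 CPM (184 to 222) in il26KO and 192 CPM (172 to 214) in WT, against 8.18 and 8.61 CPM in empty droplets. pax6b had 330 CPM (307 to 355) in il26KO and 325 CPM (299 to 353) in WT, against 6.87 and 6.20 CPM in empty droplets. The class held 90.8% of the pax6b UMIs of kept il26KO cells and 81.3% of those of WT cells, and 87.1% and 65.3% of the neurod1 UMIs. A pax6b UMI was found in 76.2% of il26KO and 70.1% of WT enteroendocrine-like cells and a neurod1 UMI in 58.0% and 53.4%, and in leukocyte-like cells the shares were 1.46% and 4.85% for pax6b and 0.488% and 0% for neurod1. Of the WT neurod1 UMIs, 9.94% lay in progenitor-like cells, at 34.0 CPM, and 56.9% of those UMIs came from 1 cell. In the WT hmgn2-led cluster pax6b was at 34.8 CPM, from 12 UMIs.

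**Figure D2:**
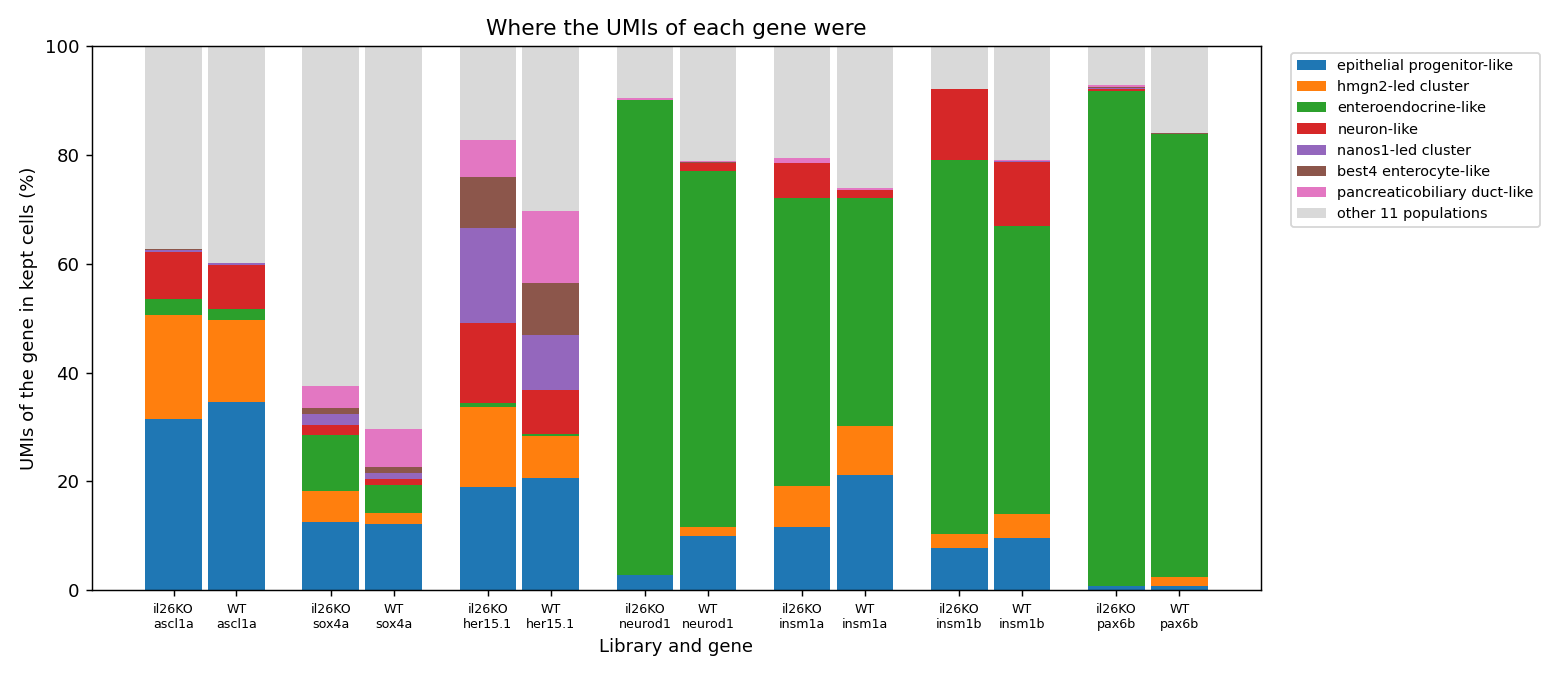
Share of each factor's UMIs in kept cells (vertical axis, %) held by 7 named populations and by all others together (grey), with the il26KO bar left of the WT bar for each gene. The enteroendocrine-like class (green) holds 90.8% of pax6b in il26KO and 81.3% in WT, the epithelial progenitor-like class (blue) 31.4% of ascl1a in il26KO and 34.6% in WT, and most of sox4a lies in the grey part.

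Inside the enteroendocrine-like class the 4 endocrine factors differed between clusters. The cluster led by scg3 and scgn, in which the hormone genes gcga and insl5a were also leading genes, had 103 il26KO and 76 WT cells. All cells of the class with ins at 1% or more of their UMIs, 6 in il26KO and 9 in WT, lay in this cluster. Its ins level was 46532 CPM in il26KO and 111349 CPM in WT. The cluster led by adcyap1a, penka and lmx1ba had 40 and 66 cells, and the cluster led by ccka, the cholecystokinin gene, had 38 and 32 cells. In the adcyap1a- and penka-led cluster insm1a was lower, at 30.4 CPM in il26KO and 28.5 CPM in WT, against 88.7 and 93.4 CPM in the scg3-led cluster, and so was neurod1, at 119 and 129 CPM against 238 and 235 CPM. pax6b was also lower there, with 251 CPM in il26KO and 192 CPM in WT, than in the ccka-led cluster, with 388 and 402 CPM. The intervals of these 3 pairs did not overlap in either library. Those of insm1a were also apart from the ccka-led cluster in both libraries. For neurod1 the intervals overlapped with the ccka-led cluster (86.0 to 160 and 142 to 213 in il26KO, 100 to 164 and 157 to 240 in WT). For pax6b they overlapped with the scg3-led cluster in il26KO (202 to 309 and 297 to 360) but not in WT (156 to 233 and 329 to 417). For insm1b the order was another, with 555 CPM (481 to 638) in il26KO and 460 CPM (404 to 522) in WT in the adcyap1a-led cluster, 526 CPM (468 to 589) and 217 CPM (177 to 264) in the ccka-led cluster, and 353 CPM (322 to 387) and 207 CPM (176 to 242) in the scg3-led cluster. The ccka-led cluster did not differ beyond its interval from the first in il26KO, nor from the last in WT. Cells with ins at 1% or more of their UMIs differed as well, since insm1b there was at 15.5 CPM (1.88 to 56.1) in il26KO and 51.0 CPM (23.3 to 96.8) in WT, against 456 CPM (428 to 486) and 313 CPM (286 to 342) in the other cells of the class.

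**Figure D3:**
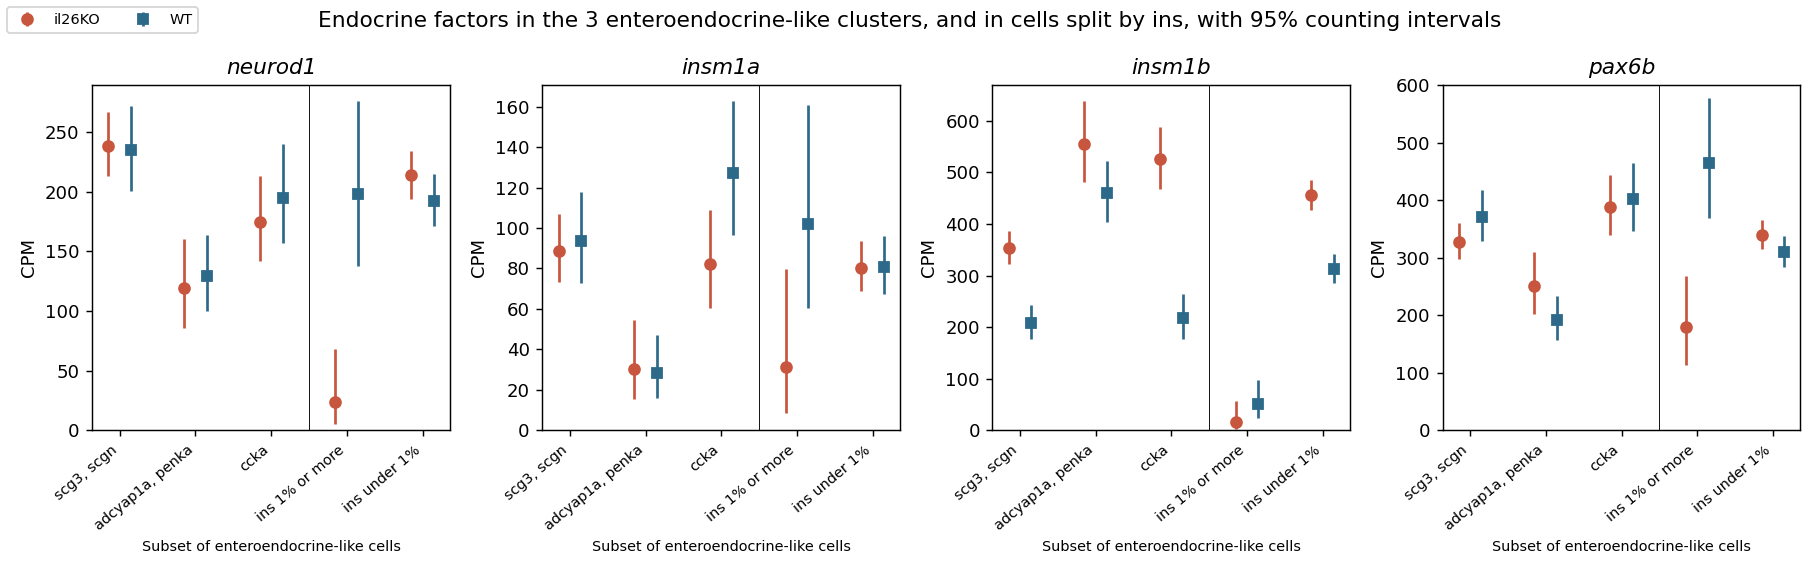
Level in CPM (vertical axes, from 0) of neurod1, insm1a, insm1b and pax6b in the 3 enteroendocrine-like clusters, named by their leading genes, and, right of the line, in the same cells split by whether ins made up 1% or more of their UMIs. Red circles are il26KO, left of the blue squares for WT, and lines are 95% counting intervals. In the ccka cluster insm1b is at 526 CPM in il26KO and 217 CPM in WT, with intervals that do not overlap.

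The next comparison asks whether the factors stood at other levels in il26KO than in WT guts. A gene with at least 10 UMIs was called higher or lower where its CPM differed at least 1.5-fold and the counting interval of the ratio left out 1. This rule called 9.62% of all genes higher and 4.15% lower in il26KO epithelial progenitor-like cells, 6.61% higher and 7.62% lower in enteroendocrine-like cells, and 8.23% higher and 7.08% lower over all kept cells. The counts of factors are read against these shares.

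In epithelial progenitor-like cells 0 of 7 measured factors were called higher and 2 of 7 were called lower. The 2 were neurod1, with 12.1 CPM in il26KO and 34.0 CPM in WT, and insm1a, with 30.6 and 48.7 CPM, at log2 ratios of -1.49 (-2.43 to -0.64) and -0.67 (-1.28 to -0.09). The neurod1 value rests on 15 UMIs in il26KO, of which 73.3% were in 1 cell, and 51 UMIs in WT. Without the top cell of each library 4 and 22 UMIs remained. The class's own 3 factors were not called. The log2 ratio of ascl1a was 0.51 (0.18 to 0.84), that of sox4a 0.26 (0.04 to 0.48) and that of her15.1 -0.08 (-0.18 to 0.01), where the median over all genes was 0.16. The value of ascl1a was 0.08 when every cell counted alike. Levels of ascl1a per cell were 0.786 UMIs in il26KO and 0.8 UMIs in WT, and the median depth of the class was lower in il26KO, 2878 against 4920 UMIs. The part of depth in these values was not tested.

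In enteroendocrine-like cells insm1b was the only 1 of 7 factors called higher, and 0 of 7 were called lower. It had 430 CPM in il26KO and 286 CPM in WT, a log2 ratio of 0.59 (0.43 to 0.75). Its point estimate lay at the edge of the rule, and without the cells with ins at 1% or more of UMIs it was 0.54, which ended the call. Both the scg3-led cluster, with 353 CPM in il26KO and 207 CPM in WT, and the ccka-led cluster, with 526 and 217 CPM, had higher insm1b in il26KO beyond counting error, and in the adcyap1a-led cluster the ratio was 0.27 (-0.01 to 0.55). The cells with ins at 1% or more of UMIs all lay in the scg3-led cluster, and their part in its insm1b levels was not tested. Thinning to 1000 UMIs left a UMI of insm1b in 29.4% of il26KO and 17.4% of WT cells. Empty droplets moved the same way, with 16.7 CPM in il26KO and 7.23 CPM in WT from 51 and 21 UMIs, and the part of free RNA in the difference was not tested. The other endocrine factors gave log2 ratios near 0 in the class, with 0.07 (-0.13 to 0.28) for neurod1, -0.09 (-0.42 to 0.24) for insm1a and 0.02 (-0.14 to 0.18) for pax6b. Counting error alone thus left room in the class as a whole for log2 ratios between -0.42, the lower bound of insm1a, and 0.28, the upper bound of neurod1. By cluster, insm1a was lower in il26KO in the ccka-led cluster, with 82.2 and 127 CPM from 47 and 59 UMIs. The log2 ratio there was -0.625 (-1.21 to -0.05). In the scg3-led and adcyap1a-led clusters insm1a, and in every cluster neurod1 and pax6b, did not differ beyond counting error.

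Over all kept cells the level of a factor also moves with the share of cells that make it. Only insm1b was called, 1 of 7 higher and 0 of 7 lower, with 14.5 CPM in il26KO and 9.46 CPM in WT, a log2 ratio of 0.62 (0.50 to 0.74). ascl1a had 5.45 and 4.07 CPM with a ratio of 0.42 (0.23 to 0.61), and pax6b 8.42 and 6.99 CPM with a ratio of 0.27 (0.12 to 0.42). sox4a, at 27.5 and 27.6 CPM, neurod1, at 5.38 and 5.15 CPM, and insm1a, at 3.39 and 3.45 CPM, did not differ beyond counting error. her15.1, at 92.6 CPM in il26KO and 105 CPM in WT, was lower beyond counting error but within 1.5-fold, with a log2 ratio of -0.19 (-0.23 to -0.15). The progenitor-like and the enteroendocrine-like class each took a larger share of il26KO cells, 5.47% and 4.71% against 3.42% and 3.40% of WT cells, and with pooled guts and 1 library each, genotype and library cannot be told apart.

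**Figure D4:**
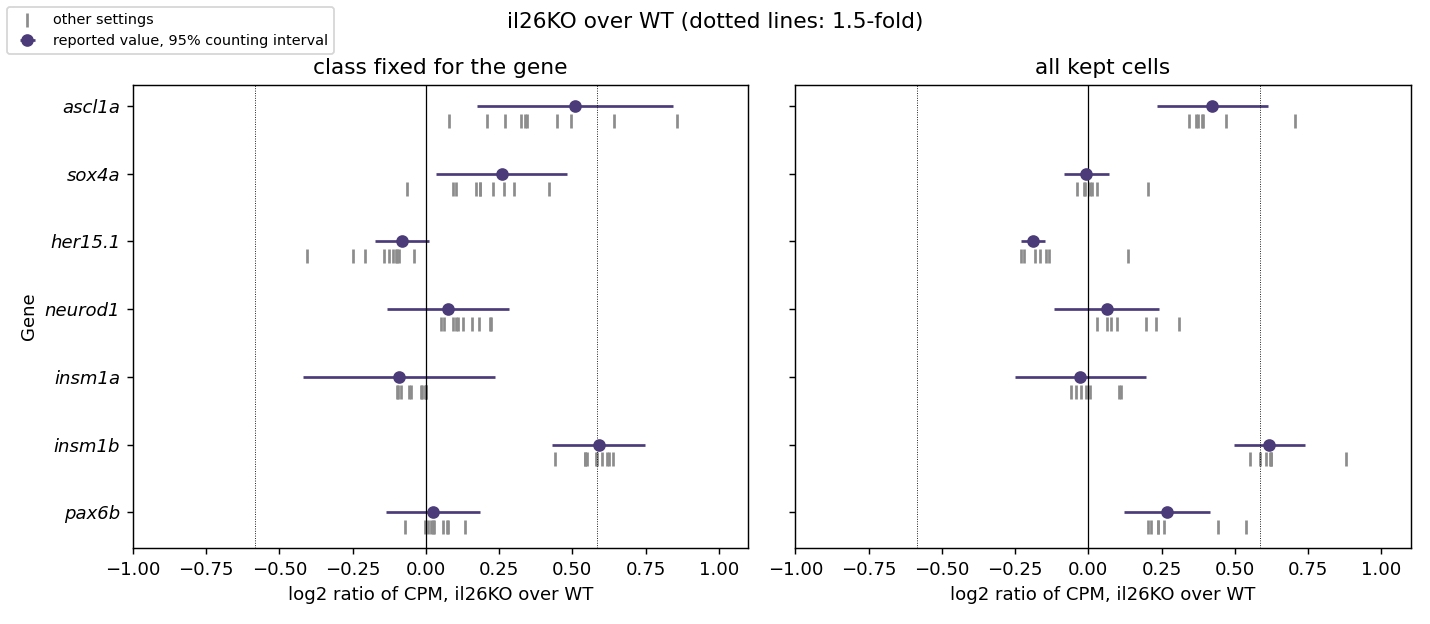
Log2 ratio of CPM, il26KO over WT, for each measured factor in its class (left; epithelial progenitor-like for ascl1a, sox4a and her15.1, enteroendocrine-like for the others) and over all kept cells (right). Purple points are the reported values with 95% counting intervals, grey ticks are the values under the other settings, and dotted lines mark 1.5-fold. Only insm1b lies past the dotted line, at 0.59 on the left and 0.62 on the right, and its ticks fall on both sides of that line.

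In the hmgn2-led cluster of dividing cells the directions differed from those of the progenitor-like class for some factors. ascl1a had 129 CPM in il26KO and 177 CPM in WT, a log2 ratio of -0.45 (-0.93 to 0.03). insm1a had 32.0 and 89.9 CPM with a ratio of -1.49 (-2.31 to -0.68), and insm1b had 48.6 and 125 CPM with a ratio of -1.36 (-2.03 to -0.69). With the cell richest in the gene left out of each library the ratios were -1.23 and -1.14. pax6b had 0 UMIs in 43 il26KO cells and 12 in 29 WT cells, of which 83.3% were in 1 cell, and all 9 neurod1 UMIs of the WT cells were in 1 cell. The 13 enteroendocrine markers summed to 76.8 CPM in il26KO and 389 CPM in WT in this cluster, with 3 and 5 of them at 0, gcga and tph1b in both libraries. The granule gene scg3 alone had 2.56 CPM in il26KO and 258 CPM in WT, with 97.8% of the WT UMIs in 1 cell, and the part of these markers in the differences was not tested. her15.1 was at 1683 CPM in il26KO and 2309 CPM in WT, with 37.6% of the WT UMIs in 1 cell, and its ratio of -0.46 was -0.04 without the top cells.

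Factors were also called in other populations, and the share of all genes called the same way is given in brackets. Higher were 2 of 2 factors with at least 10 UMIs in the nanos1-led cluster (5.90%), 1 of 2 in vascular endothelial-like (5.38%) and 1 of 5 in neuron-like cells (6.1%). Lower were 3 of 6 in the hmgn2-led cluster (7.22%) and 1 of 2 in skeletal muscle-like cells (13.7%). So were 4 of 7 in anterior enterocyte-like (4.82%) and 3 of 7 in lysosome-rich enterocyte-like cells (7.59%). The 4 in anterior enterocyte-like cells, and sox4a and pax6b in lysosome-rich ones, were below the empty droplets in both libraries. Some further populations had calls, and no share over all genes is given for them here. In neuron-like cells insm1a was called higher, with 21 UMIs in il26KO and 5 in WT, and in the nanos1-led cluster her15.1 was called higher, with 1827 and 1177 CPM. In pancreaticobiliary duct-like cells her15.1 was called lower, with 231 and 388 CPM, a log2 ratio of -0.75 (-0.89 to -0.61). Without the top cell of each library this ratio was -0.61, from 486 and 1012 UMIs. Empty droplets moved the same way for her15.1, with a log2 ratio of -0.71 (-0.93 to -0.48). The agr2-led cluster also had her15.1 called lower, with 35.9 and 106 CPM, below the empty droplets of both libraries. Beyond counting error her15.1 was higher in 3 and lower in 9 of 17 populations with at least 10 UMIs. No share over all genes is given for this count, and nothing is read from it. Among the lower ones, the agr2-led cluster and anterior enterocyte-like, lysosome-rich enterocyte-like, epidermal-like and leukocyte-like cells were below the empty droplets in both libraries. The part of free RNA in this count was not tested.

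her15.1 needed a closer account, because the symbol stands for 2 gene IDs that are next to each other in the feature list. ENSDARG00000054562 is named her15.1 and ENSDARG00000054560 is named her15.2 in the gene name table used here, and they are closely related copies, so the split of reads between them is uncertain. The split differed between the libraries. In kept il26KO cells 31.9% (30.9 to 32.9) of the UMIs of both IDs went to the first, against 44.9% (43.9 to 45.8) in WT cells. In progenitor-like cells the first ID had 375 CPM in il26KO and 652 CPM in WT, a log2 ratio of -0.80 (-0.96 to -0.64), while the second had 994 and 798 CPM, a log2 ratio of 0.32 (0.20 to 0.43). The opposite directions cancelled in the sum. In the nanos1-led cluster, where the sum was called higher, the first ID had 396 UMIs in il26KO and 437 in WT. The second had 1170 and 615 UMIs there, so the rise lay in the second ID. The pooled share of the first ID was not lower in il26KO beyond its interval in every population. In neuron-like cells the first ID took 41.0% of the UMIs in il26KO and 42.3% in WT, and in duct-like cells 49.0% and 47.3%. In lysosome-rich enterocyte-like cells the first ID took the larger share in il26KO, 55.3% (48.9 to 61.7) against 43.7% (38.6 to 48.8) in WT. That class was below the empty droplets in both libraries, at 20.2 and 28.7 CPM. Its 4 il26KO cells with at least 20 UMIs of both IDs had first-ID shares from 28.3% to 75.9%. The intervals in this paragraph take UMIs as independent. For il26KO they are too narrow, because its cells differed in the split far beyond counting error, as described next.

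Single cells of the il26KO library differed widely in this split. Among cells with at least 20 UMIs of both IDs together, a minimum chosen after the values were seen, the first ID took between 23.8% and 70.8% in 148 WT cells, and between 0% and 100% in 102 il26KO cells. In the il26KO library 14 such cells had no UMI of the first ID and 2 had none of the second, and in the WT library no cell lacked either. Cells in which the first ID took under 25% numbered 43 of 102 in il26KO and 1 of 148 in WT, and cells with over 65% numbered 15 and 1. The variance of the split between cells was 23.2 times the binomial variance in il26KO and 1.1 times in WT, so WT cells varied about as counting alone would give. With minimums of 10 and 40 UMIs the same quotient was 15.7 and 29.8 in il26KO and 0.964 and 1.03 in WT. The il26KO cells with under 25% were found in several populations, with 9 of 19 progenitor-like cells, 9 of 15 cells of the hmgn2-led cluster, 8 of 14 best4 enterocyte-like cells and 6 of 13 cells of the nanos1-led cluster, but 1 of 15 neuron-like cells. Which larva a cell came from was not recorded, since the guts of a library were pooled.

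**Figure D5:**
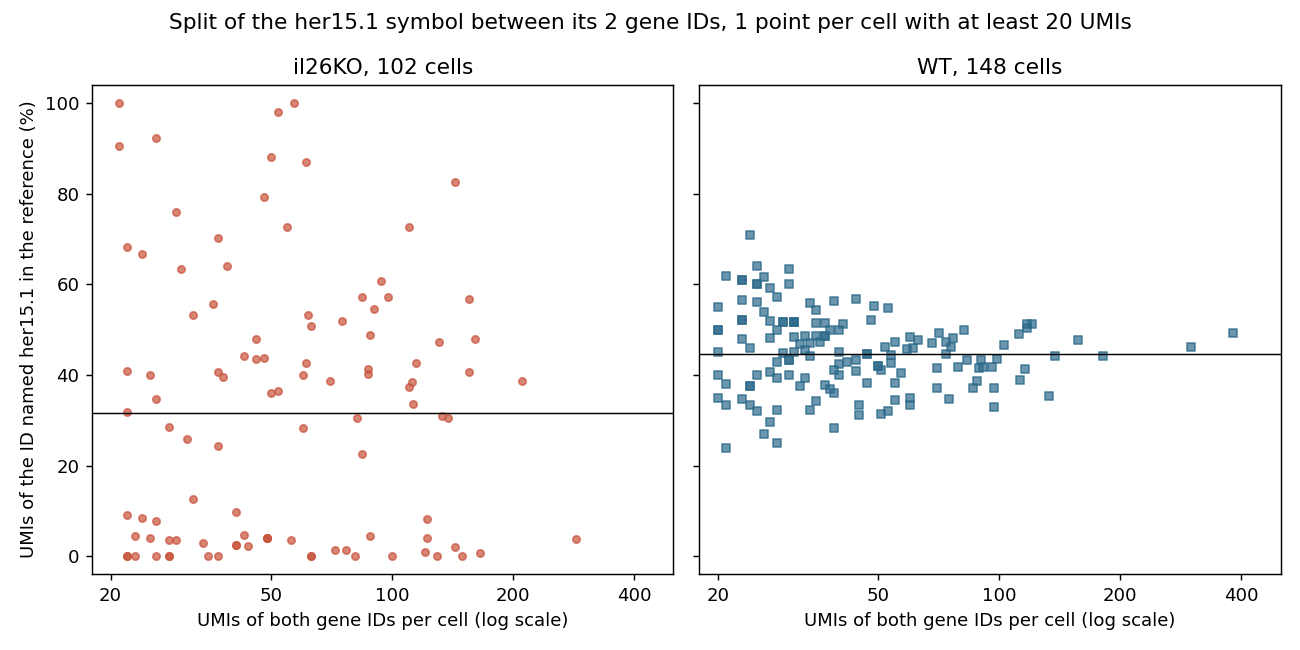
Share (vertical axis, %) of the first her15.1 ID, ENSDARG00000054562, in the UMIs of both IDs against their sum (horizontal log axis) in single cells with at least 20 UMIs, for 102 il26KO cells (left) and 148 WT cells (right), with the pooled share as a line. WT cells gather around 44.6%, while il26KO cells range over the whole axis with a band near 0%.

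sox4a is likewise a sum of 2 IDs, ENSDARG00000096389, named sox4a in the gene name table, and ENSDARG00000004588, named SOX4. The second ID held most UMIs, and the first took 11.1% (9.92 to 12.4) in il26KO and 10.8% (9.67 to 12) in WT over all kept cells. The log2 ratios of the 2 IDs over all kept cells were 0.03 (-0.21 to 0.27) and -0.01 (-0.09 to 0.07), and neither differed beyond counting error. Between single cells with at least 10 UMIs of both IDs the variance of the split was 5.92 times the binomial variance in 32 il26KO cells and 2.64 times in 38 WT cells. By population the first ID was more frequent in vascular endothelial-like cells, at 28.6% in il26KO and 19.6% in WT, than in progenitor-like cells, at 6.63% and 5.37%.

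Co-detection shows how the factors were combined in single cells, with the reserve that a deeper cell shows more of every gene. Among progenitor-like cells with an ascl1a UMI, insm1a was found in 14 of 40 il26KO cells (35.0%, 20.6 to 51.7) and 11 of 36 WT cells (30.6%, 16.3 to 48.1), against 6.47% and 8.63% of the cells without ascl1a. For insm1b the shares were 32.5% and 44.4%, against 9.41% and 7.91%. The cells with ascl1a were deeper, with a median of 5481.5 UMIs in il26KO and 9231.5 in WT, than those without, with 2760.5 and 3575 UMIs, and the part of depth in these shares was not tested. her15.1 was found in 62.5% of il26KO and 72.2% of WT progenitor-like cells with ascl1a, against 42.9% and 55.4% of those without. The intervals of these shares overlapped in each library (45.8 to 77.3 and 35.4 to 50.7 in il26KO, 54.8 to 85.8 and 46.7 to 63.8 in WT). neurod1 was found in 1 of 40 and 1 of 36 of them. Only 3 il26KO and 6 WT progenitor-like cells had a neurod1 UMI, and 2 and 5 of these also had insm1b, while 0 and 2 had her15.1.

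In enteroendocrine-like cells with a neurod1 UMI, pax6b was found in 84.8% (76.4 to 91.0) of il26KO and 80.6% (71.1 to 88.1) of WT cells, and insm1b in 83.8% and 76.3%. The paralog insm1a was seen in 54 of 105 il26KO and 55 of 93 WT cells with neurod1. her15.1 was seen in 10.5% and 9.68%, and ascl1a in 7.62% and 3.23%. In cells of the class without neurod1, pax6b was found in 64.5% in il26KO and 58.0% in WT, and insm1b in 51.3% and 43.2%. There insm1a was found in 26.3% and 14.8%, her15.1 in 11.8% and 6.17%, and ascl1a in 1.32% and 2.47%. The cells with neurod1 were deeper, with a median of 15374 UMIs in il26KO and 11598 in WT, against 4678.5 and 4484 UMIs. The part of depth in these shares was not tested. In neuron-like cells ascl1a and her15.1 went together, since her15.1 was found in 14 of 15 il26KO and 8 of 12 WT cells with ascl1a, against 33.3% and 25% of those without, at near-equal depths of 9247 and 9159.5 UMIs in il26KO and 8504 and 8185.5 UMIs in WT. The intervals of these shares were apart in il26KO (68.1 to 99.8 and 19.6 to 49.5) and overlapped in WT (34.9 to 90.1 and 12.7 to 41.2). For insm1b the direction there differed between the libraries. It was found in 46.7% of il26KO and 75.0% of WT cells with ascl1a and in 50.0% and 52.5% of those without, with intervals that overlapped in each library.

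The genes most like each factor were sought over 28 profiles, the 14 named classes in both libraries, by Pearson's r of log2(CPM + 5). The profiles of a class in both libraries are not independent, and these values are descriptive. Among the factors themselves the closest pair was insm1a and insm1b (r = 0.94), followed by neurod1 and pax6b (r = 0.88) and neurod1 and insm1a (r = 0.87), and the most distant was her15.1 and pax6b (r = -0.05). Outside the list, her2, another Hes/Her repressor gene, was closest to her15.1 (r = 0.96), ahead of ddx42 (r = 0.85). her2 is also in the marker list that named the progenitor-like class, so the naming favoured a high level of it there. myt1b, a zinc-finger factor gene of neural and endocrine cells, was closest to insm1b (r = 0.98), with CU571064.1 next (r = 0.98). Closest to neurod1 were rasd4 (r = 0.94) and rfx6 (r = 0.93), a factor gene of islet and enteroendocrine development. casr, the calcium-sensing receptor gene, and dnah7 were closest to pax6b (r = 0.98 each), kif19 and TMEM8B to insm1a (r = 0.96 and 0.92), tulp1a and hmx3a to ascl1a (r = 0.92 each) and kmt2e and ppp6r3 to sox4a (r = 0.94 and 0.93).

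The surrounding pathways were read from 3 gene lists, and highest and lowest ratios are given among genes with at least 50 UMIs. Over all genes 9.62% were called higher and 4.15% lower in progenitor-like cells, and 6.61% and 7.62% in enteroendocrine-like cells, and no list is called particular from its count. Of 36 measured Notch pathway genes in progenitor-like cells, 5 were called higher (notch1a, dld, jag1b, her4.4 and numbl) and 1 lower (jag2a), with a median log2 ratio of 0.20 beside 0.16 over all genes. Few UMIs lay behind some calls, with 9 in il26KO and 1 in WT for her4.4, 16 and 6 for numbl, and 4 and 16 for jag2a. The 3 highest in level were her6, a Notch-induced repressor gene, with 1369 CPM in il26KO and 1320 CPM in WT, neurl1aa, which encodes a ubiquitin ligase of Delta ligands, with 709 and 515 CPM, and her2, with 502 and 384 CPM. The list shares neurl1aa, her2, dla and dld with the markers that named the class, so the naming favoured high levels of these genes there. The ligand gene jag1b had the highest ratio, 0.86 (0.27 to 1.46), and the ligand gene dlc the lowest, -0.77 (-1.67 to 0.08). In enteroendocrine-like cells 1 of 29 Notch pathway genes was called higher (her4.1) and 1 lower (her6). The her4.1 call rests on 15 UMIs in il26KO, or 6.73 CPM, and 0 in WT. The her6 level was 26.5 CPM in il26KO and 64.9 CPM in WT, a log2 ratio of -1.30 (-1.77 to -0.83). By cluster her6 was not uniform, with 30.1 CPM in il26KO and 17.4 CPM in WT in the scg3-led cluster, a log2 ratio of 0.79 (-0.14 to 1.82), and with ratios of -1.64 (-2.63 to -0.76) and -2.85 (-4.25 to -1.68) in the adcyap1a-led and ccka-led clusters, whose shares of the class differed between the libraries. The most abundant there were neurl1aa with 425 and 285 CPM, dll4 with 160 and 156 CPM and adam10a with 132 and 113 CPM, and aph1b had the highest ratio, 0.64 (-0.17 to 1.49).

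Among other early secretory and goblet factors, 5 of 11 measured genes were called higher in il26KO progenitor-like cells (sox4b, gfi1aa, foxa2, creb3l1 and pou2f3) and 0 lower, with a median log2 ratio of 0.44 beside 0.16 over all genes. sox4b, the paralog of sox4a, had 128 CPM in il26KO and 62.7 CPM in WT, a ratio of 1.03 (0.65 to 1.41), whereas foxa3 had 112 and 111 CPM, a ratio of 0.01, and foxa1 had 68.5 and 55.4 CPM. In enteroendocrine-like cells 3 of 9 were called higher (sox4b, sox11a and sox11b) and 0 lower. sox11a had 91.5 CPM in il26KO and 45.4 CPM in WT, and sox11b 60.5 and 28.2 CPM, with log2 ratios with intervals of 0.63 to 1.40 and 0.62 to 1.61. foxa3 with 92.8 and 89.6 CPM and foxa2 with 76.2 and 56.9 CPM were the other abundant ones, and foxa1 had the lowest ratio, -0.07. The SoxC genes of that list, sox4b, sox11a and sox11b, were thus higher in il26KO where sox4a itself was at 122 CPM in il26KO and 81.6 CPM in WT, a ratio of 0.58 (0.28 to 0.88) just inside the 1.5-fold limit. This depends on the sum over IDs, since ENSDARG00000004588 alone had a ratio of 0.62 (0.31 to 0.93), past 1.5-fold, and ENSDARG00000096389, with 11 UMIs in il26KO and 9 in WT, a ratio of -0.07 (-1.48 to 1.38).

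Of the other enteroendocrine factors, 3 of 14 measured genes were called higher in progenitor-like cells (pax4, prox1a and runx1t1) and 1 lower (pdx1, with 6 UMIs in il26KO and 31 in WT). pax4, a factor of endocrine precursors, had 46 UMIs in il26KO and 21 in WT, or 37.1 and 14 CPM, a ratio of 1.40 (0.63 to 2.22). runx1t1 had 56.4 and 37.4 CPM and prox1a 41.9 and 18.7 CPM, while myt1b, with 30.6 and 32.0 CPM, had the lowest ratio, -0.07. Hormone and granule markers of the class went both ways. Of 13 enteroendocrine markers 6 were higher and 7 lower in il26KO progenitor-like cells, none was at 0, and their sum was 830 CPM in il26KO and 218 CPM in WT. Most of this sum was the peptide gene pyyb, with 585 and 12 CPM, of which 1 il26KO cell held 89.9%. Without pyyb the sum was 245 CPM in il26KO and 206 CPM in WT, and the part of these markers in the counts above was not tested. In enteroendocrine-like cells 2 of 17 were called higher (arxa and lmx1bb) and 3 lower (lmx1ba, lmx1al and neurog3). lmx1ba had 177 CPM in il26KO and 451 CPM in WT, a ratio of -1.35 (-1.53 to -1.17), and lmx1al had 22.4 and 94.2 CPM, a ratio of -2.07 (-2.56 to -1.61). Both genes lie mainly in the adcyap1a-led cluster, which made up 22.1% of the class in il26KO and 37.9% in WT. Inside that cluster lmx1ba had 1058 and 1470 CPM, a ratio of -0.47 (-0.66 to -0.30), and lmx1al 122 and 302 CPM, a ratio of -1.31 (-1.83 to -0.83), so lmx1ba was no longer past 1.5-fold there. The neurog3 call rests on 1 UMI in il26KO and 10 in WT, and all 10 were in the adcyap1a-led cluster. lmx1bb had the highest ratio in the class, 0.85 (0.40 to 1.31), pdx1 had 403 and 275 CPM, and fev, a factor of serotonin-producing cells, had 261 and 259 CPM. Most pdx1 UMIs, 854 of 898 in il26KO and 437 of 478 in WT, were in the scg3-led cluster. That cluster made up 56.9% of the class in il26KO and 43.7% in WT. Inside it pdx1 had 659 and 583 CPM, a ratio of 0.18 (0.01 to 0.35). That cluster also held the cells with ins at 1% or more of UMIs, in which pdx1 was at 497 and 754 CPM. In the other cells of the class pdx1 had 397 CPM in il26KO and 221 CPM in WT, a ratio of 0.85 (0.66 to 1.03), past 1.5-fold. The part of cluster shares and of ins-rich cells in the pdx1 values was not tested.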

How the data were processed

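Droplet libraries of 5 dpf guts, 1 per genotype, were analysed. The authors deposited raw UMI counts per gene and barcode, not filtered to cells. Per the file headers Cell Ranger 7.1.0 made them, and the submitters' processing notes name danRer11. Which annotation release was used, and whether intronic reads counted, is not given in the sources used here. Counts of IDs with the same symbol were summed.

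Cells had at least 500 genes and at most 25% mitochondrial UMIs (300 il26KO and 309 WT barcodes removed by the latter). Scrublet in scanpy 1.11.5 called 1 doublet per library and so did not work. The highest scores were removed instead, at 0.8% per 1000 cells (126 il26KO and 229 WT barcodes). Clusters were made in Seurat 5.3.0 (2000 variable genes without the factors, cell cycle and mitochondrial genes, CCA integration, 30 dimensions, resolution 0.8). A cluster took the class of the marker list with the highest mean log2 fold, with a pseudocount of 20 CPM, out of 19 lists. A name needed 3 raised markers (detected in 10% or more of the cluster and 2-fold or more above the rest), and its 10 leading genes had to hold a marker of the class and no more of another. This rule was set after the clusters had been seen.

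Intervals are exact: Poisson for counts, Clopper-Pearson for shares, and a binomial split for ratios. A count of 3 UMIs is the floor drawn for populations at 0. The ratio was tested on simulated data. The named genes were the 8 factors, for each the 2 most alike genes with at least 50 UMIs, and per list and class the 3 highest in level and the extreme ratios among genes with at least 50 UMIs. Other genes are named where they make up a count of called genes, and neurog3, the her15.1 split and the cells rich in ins were singled out after their values were seen. The factors, the lists and the rules were chosen with earlier results of these data known.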

Additional observations from a re-analysis of the deposited data

Results flagged for a closer look

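For 4 factors the ratio of il26KO to WT was called in opposite directions in different populations. These differences between populations were not tested, since there was 1 library per genotype. The same rule called 5.90% of all genes higher in the nanos1-led cluster, 5.38% in vascular endothelial-like, 6.1% in neuron-like and 6.61% in enteroendocrine-like cells, and 7.22% lower in the hmgn2-led cluster, 7.59% in lysosome-rich enterocyte-like, 13.7% in skeletal muscle-like and 4.82% in anterior enterocyte-like cells. For sox4a the log2 ratio was 0.83 in the nanos1-led cluster (53 UMIs in il26KO and 31 in WT) and -2.51 in skeletal muscle-like cells (2 and 12 UMIs). Without the top cell of each library the nanos1-led value was 0.28 (23 and 20 UMIs), which ended the call, and the skeletal muscle-like levels, 1.98 CPM in il26KO and 11.3 CPM in WT, were below the empty droplets, at 27.8 and 23.8 CPM. For her15.1 it was 0.98 in vascular endothelial-like cells, at 122 CPM in il26KO and 61.6 CPM in WT, and -2.05 in anterior enterocyte-like cells, at 5.27 and 21.8 CPM. The vascular endothelial-like level in WT was below the WT empty droplets. In those cells the ID named her15.1 had 52 UMIs in il26KO and 53 in WT, and the ID named her15.2 had 203 and 83. The anterior enterocyte-like levels were below the empty droplets, which differed in the same direction, by -0.71. For insm1a it was 1.70 in neuron-like cells (21 and 5 UMIs) and -1.49 in the hmgn2-led cluster (25 and 31 UMIs). For insm1b it was 0.59 in enteroendocrine-like cells and -1.66 in lysosome-rich enterocyte-like cells, at 1.99 CPM in il26KO and 6.27 CPM in WT, levels no higher than those of the empty droplets, 16.7 and 7.23 CPM.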

How the results depend on the processing

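Each of the 14 ratios (7 factors, in their class and over all kept cells) was recomputed under the other settings. Of 119 such values 103 moved by less than the counting interval and 16 moved by more. Only insm1b was called, and its ratios kept their sign throughout. The ratios of sox4a in its class (0.26) and of her15.1 over all kept cells (-0.19), both beyond counting error, changed sign under equal weighting. Some ratios within counting error also changed sign. With equal weighting of cells the log2 ratio of ascl1a was 0.080 in its class and 0.71 over all kept cells, that of sox4a -0.063 and 0.20, and that of her15.1 -0.41 and 0.14, while over all kept cells insm1b was 0.88 and pax6b 0.54. With at least 300 genes per cell her15.1 was -0.21 in its class and -0.14 over all kept cells. With at least 1000 genes the values over all kept cells were -0.23 for her15.1, 0.31 for neurod1 and 0.44 for pax6b. With at most 10% mitochondrial UMIs her15.1 was -0.13 over all kept cells. Median-of-ratios scaling, which takes out the median shift of 0.16 in progenitor-like cells, gave -0.25 for her15.1 there, and with the factors and cell cycle genes kept in the clustering ascl1a was 0.86. In enteroendocrine-like cells insm1b lay between 0.44 and 0.64 over 10 alternatives, and 4 of them kept it past 1.5-fold. The settings without the richest cell and without the ins-rich cells were added after the data were seen. The causes were not tested. No paired analysis was possible because there was 1 library per genotype and no test. Depth limits the factors in small populations most, where 1 cell can hold most of a gene's UMIs.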

Other observations

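The number of measured factors seen in 1 cell differed between the populations. In progenitor-like cells 53 of 210 il26KO cells and 33 of 175 WT cells had none of the 7, and 4 or more were seen in 12, 5 and 1 il26KO cells (with 4, 5 and 6 factors) and in 11 and 9 WT cells (with 4 and 5). In enteroendocrine-like cells 4 factors were seen in 42 il26KO and 37 WT cells, and 5 in 43 and 30. As many as 6 were seen in 4 il26KO and 3 WT enteroendocrine-like cells, and no cell of the 4 populations counted had all 7.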
